A study of Sus scrofa with 10 samples.

Results

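The genes described here encode the integrins, the receptors by which cells hold on to the matrix and to each other, and the laminins, the cross-shaped proteins that form the sheet of the basement membrane. They were found by symbol, as pig genes whose names begin with ITGA, ITGB, LAMA, LAMB or LAMC followed by a subunit number or the letter of a subunit. LAMTOR genes and the integrin-binding proteins ITGB1BP and ITGB3BP were left out. The deposited table has 25880 rows, and 35 of them met the rule: 23 integrin genes (15 alpha and 8 beta subunits) and 12 laminin genes. RNA was sequenced from pigs of the Northeast Min breed, a domestic pig, at 60 days of age. There was 1 library from each of 9 tissues: ovary, subcutaneous adipose tissue, the skeletal muscles psoas major and longissimus dorsi, and the organs heart, kidney, liver, lung and spleen. Another library is labelled as a mixture of those organs with muscle and ovary, without adipose tissue. Its markers go against that label in part: 6 ovary markers summed to 0.797 FPKM (a level scaled for transcript length and library depth) there against 373 in ovary, with AMH and FSHR listed at 0, and 5 Schwann cell markers summed to 328, against at most 58.5 in any single tissue. The labels name no treatment, and do not say how many animals were used or whether the tissues came from the same animal. With 1 library per tissue there is no replicate error, so each value stands alone, and no test, p-value or interval is given. The nearest thing to a repeat is the pair of skeletal muscles, which are different muscles.

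An integrin is a pair of 1 alpha and 1 beta subunit, and the alpha subunit largely sets what the pair binds. ITGB1 is the common partner, shared by the receptors for collagens, laminins and fibronectin, while ITGB2 pairs with the alpha subunits of leukocytes. A laminin is a trimer of 1 alpha, 1 beta and 1 gamma chain. The alpha chain carries the main sites by which cells bind, and tissues are known to differ in which chains they use: LAMA2 in muscle and peripheral nerve, LAMA4 and LAMA5 in vessels, LAMA3 and LAMB3 in epithelia.

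Values were read as FPKM, fragments scaled for transcript length and library depth, so levels of different genes can be set side by side. Each tissue was checked against marker genes. All 6 detected markers of skeletal muscle, all 6 of hepatocytes, all 6 of lung epithelium, all 6 of kidney, all 6 of adipocytes, all 4 of heart muscle, all 5 detected of ovary and all 5 of spleen were highest in the tissue of that name. Depth, judged from the steps between the values of short genes, was between 11.5 M fragments in kidney and 31.3 M in lung, uncertain by a factor of 2. In a whole tissue, fewer cells of a type and less RNA per cell cannot be told apart.

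Of the 35 genes, 34 reached 1 FPKM, the level called detected here, in at least 1 tissue, against 60.4% of all rows and 84.4% of the genes that have a name. The exception was LAMB4, a little-studied beta chain, with at most 0.450 FPKM (adipose tissue). 14 genes were detected in all 9 tissues, a breadth that 49% of detected rows shared. Lung and ovary held the most detected members, 33 each, followed by kidney with 32, spleen and adipose tissue with 29 each, heart and psoas major with 24 each, longissimus dorsi with 21 and liver with 18. The number of all rows detected had a similar order, with 13164 in ovary, 12788 in lung, 11997 in spleen, 11901 in kidney, 11410 in adipose tissue, 10769 in heart, 10243 in psoas major, 9802 in liver and 9592 in longissimus dorsi, so the members' order is not read as particular to them.

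For comparisons between tissues, psoas major and longissimus dorsi were averaged as skeletal muscle, which leaves 8 classes. A gene was called enriched when its FPKM + 1 in 1 class was at least 5-fold above that in every other class, with at least 1 FPKM. 2 of 34 detected members were enriched, LAMA1 and LAMC3, both in ovary, against 6.49% of all detected rows (1.47% enriched in ovary). ITGAM came closest below the threshold, at 4.45-fold in spleen (5.27-fold, and so past it, under quantile normalisation), and ITGB4 followed at 3.16-fold in ovary. The same 2 genes had a specificity index tau of at least 0.8, LAMA1 at 0.93 and LAMC3 at 0.83, against 16.7% of detected rows. Tau runs from 0 for a gene level in all classes to 1 for a gene in a single class. Its median was 0.54 over the members and 0.41 over all detected rows.

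Lung was the highest class for 9 members (15% of detected rows), ovary for 7 (29%), spleen for 6 (19.2%), kidney for 5 (13%) and adipose tissue for 5 (6.72%). Heart was highest for 2 (7.04%), ITGA5 and LAMB2. Liver (5.67%) and skeletal muscle (4.38%) were highest for none. The margin over the next class was at least 2-fold for 12 of 34 members, compared with 24.6% of detected rows. It was under 1.2-fold for ITGA1, ITGA2, ITGA6, ITGAL, ITGB6 and ITGB8, so the order of their leading classes should not be read. The highest class was the same under all 3 ways of rescaling the libraries for 29 of the 35 members; ITGA6, ITGA9, ITGA10, ITGAE, ITGB6 and LAMB3 moved under at least 1 of them.

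**Figure D1:**
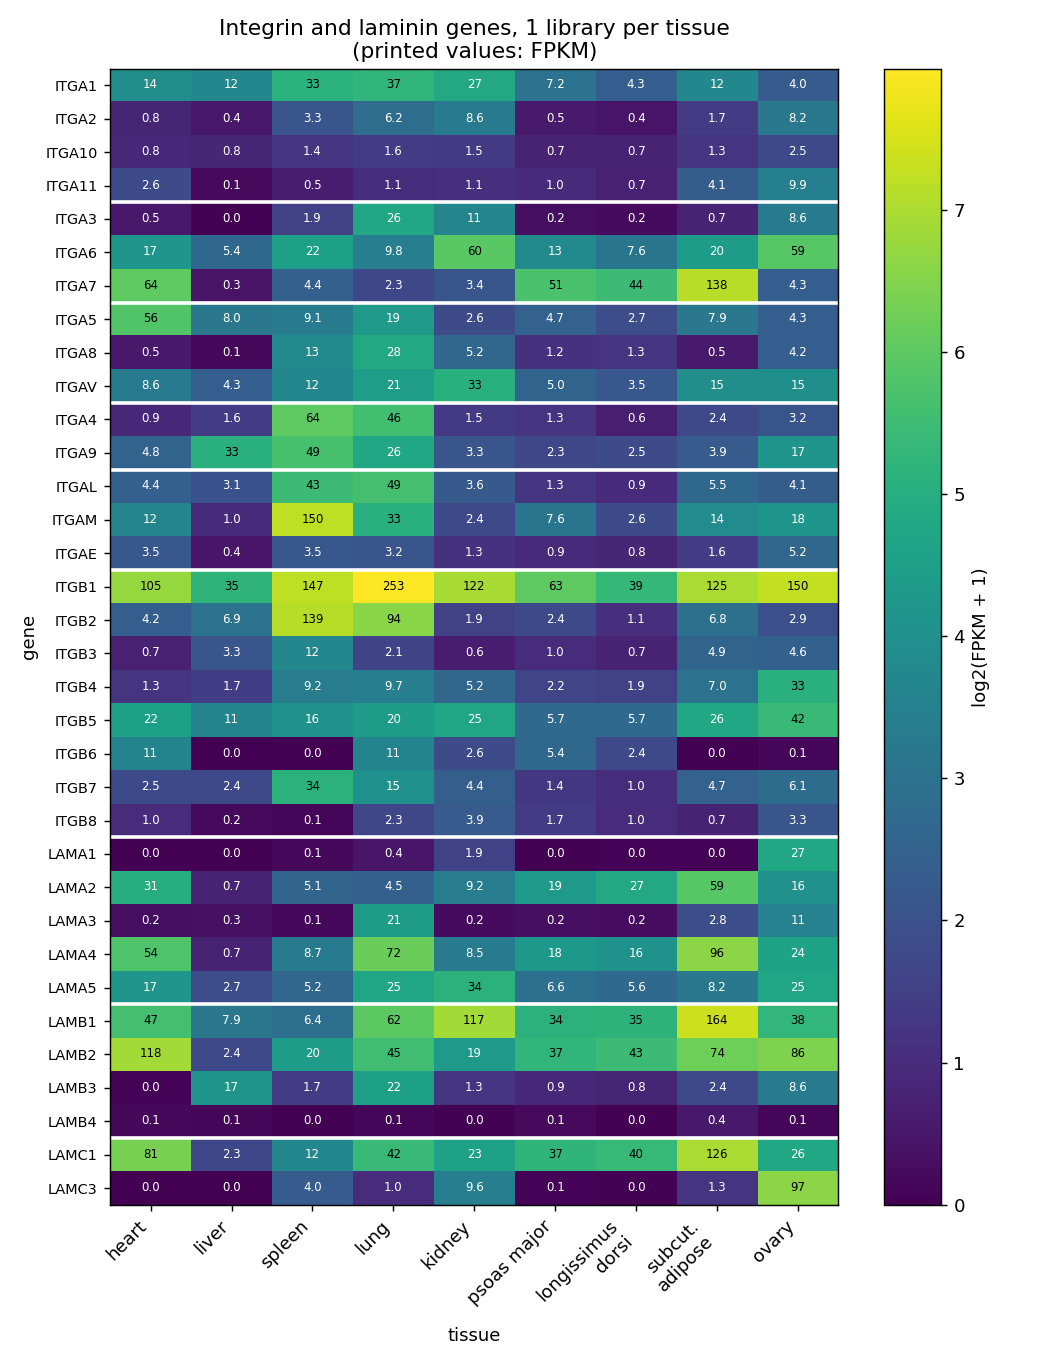
Heat map of 34 of the 35 integrin and laminin genes (rows, grouped by role, with white lines between groups) in the 9 single-tissue libraries (columns). Colour gives log2(FPKM + 1) and the printed number gives FPKM. LAMA1 and LAMC3 are bright in ovary alone among their rows, ITGA7 in adipose tissue and the 3 striated muscles, and ITGB2 in spleen and lung.

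Among laminin alpha chains, LAMA4 led in heart, spleen, lung and adipose tissue, LAMA5 in liver and kidney, LAMA2 in the skeletal muscles and LAMA1 in ovary. LAMA1 is the alpha chain of the first basement membranes of the embryo, and its row (ENSSSCG00000034767) lies at chromosome 6, 100355065 to 100468454 on the plus strand of Sscrofa11.1. Its level was 0.0217 FPKM in heart, 0.00436 in liver, 0.123 in spleen, 0.385 in lung, 1.94 in kidney, 0.0127 in psoas major, 0.0464 in longissimus dorsi, 0.0458 in adipose tissue and 27.0 in ovary. Ovary stood alone, 9.52-fold above kidney in FPKM + 1, and kidney was the one other tissue above 1 FPKM. Even in ovary LAMA1 made up only 26.5% of the summed alpha chains, with LAMA5 at 24.4%, LAMA4 at 23.3% and LAMA2 at 15.4%. No alpha chain dominated there.

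LAMA4, the shorter alpha chain found in vessel walls, fat and muscle, reached the highest level among the alpha chain rows used. It was at 54.3 FPKM in heart, 0.705 in liver, 8.66 in spleen, 72.4 in lung, 8.50 in kidney, 18.3 in psoas major, 15.7 in longissimus dorsi, 96.3 in adipose tissue and 23.7 in ovary. Adipose tissue, lung and heart were far above the rest, and liver was below the detection level. The share of LAMA4 among alpha chains was 58.9% in lung, 57.9% in adipose tissue, 53.0% in heart and 45.1% in spleen. Endothelial markers ran in parallel at the top: the summed FPKM of 6 endothelial genes was 463 in lung, 308 in adipose tissue and 173 in heart, and between 73.8 and 117 elsewhere. Their part in the LAMA4 levels was not tested.

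LAMA5, the alpha chain of mature epithelial and vascular basement membranes, was highest in kidney at 33.9 FPKM, then 25.1 in lung, 24.8 in ovary and 17.1 in heart. Other tissues held between 2.67 (liver) and 8.23 (adipose tissue). It supplied 63.1% of alpha chain transcripts in kidney. In liver its share was 61.0%, on a sum of only 4.37 FPKM over all 5 alpha chains.

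LAMA2, the alpha chain that anchors muscle fibres, was at 30.7 FPKM in heart, 0.700 in liver, 5.07 in spleen, 4.51 in lung, 9.22 in kidney, 18.9 in psoas major, 27.0 in longissimus dorsi, 59.0 in adipose tissue and 15.6 in ovary. Adipose tissue was highest, ahead of heart and both skeletal muscles, and the non-muscle organs other than ovary were all under 10. Its share of alpha chains was 55.6% in longissimus dorsi and 42.9% in psoas major, where LAMA4 nearly equalled it at 41.5%. The annotation splits this gene. The row used (ENSSSCG00000033894, minus strand, chromosome 1, 33801832 to 34359618) was named by its overlap with the RefSeq gene, and a second row of 33744019 to 33853718 lies over the 3′ part of the same locus. That second row ran at 1.34 to 1.97 times the first in every tissue, with 110.3 FPKM in adipose tissue, 54.8 in heart, 44.6 in longissimus dorsi and 35.8 in psoas major. The order of the 4 highest tissues was the same in both rows. Put in the place of the first row, however, it gave LAMA2 the lead in 5 tissues: longissimus dorsi (67.4%), psoas major (58.7%), adipose tissue (50.7%), heart (43.4%) and spleen (41.4%), and left LAMA4 leading in lung alone. Which alpha chain leads in heart, spleen and adipose tissue therefore depends on the row. A further row without a name overlaps the first row over 390261 bp, and its part in these levels was not tested.

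LAMA3, the alpha chain of epithelial anchoring laminin, was high in 2 tissues, with 20.5 FPKM in lung and 10.6 in ovary. Adipose tissue had 2.80, and the other 6 tissues lay between 0.126 and 0.294.

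The beta chains split the tissues along another line. LAMB2, the beta chain of the neuromuscular junction and the glomerular filter, led in heart (71.4%), spleen (71.5%), ovary (64.9%), longissimus dorsi (54.8%) and psoas major (51.3%). LAMB1, the more widely used chain, led in kidney (85.1%), adipose tissue (68.0%) and lung (48.0%). The ratio of LAMB1 to LAMB2 in FPKM was 6.10 in kidney, 3.30 in liver and 2.21 in adipose tissue, and 0.399 in heart and 0.315 in spleen. This ratio is taken within a library, so a scaling that multiplies a library by 1 factor cannot move it; quantile normalisation can.

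LAMB1 stood at 47.1 FPKM in heart, 7.90 in liver, 6.44 in spleen, 62.1 in lung, 117 in kidney, 34.1 in psoas major, 35.0 in longissimus dorsi, 164 in adipose tissue and 38.0 in ovary. Adipose tissue and kidney were above 100, and spleen and liver were lowest. LAMB2 was highest in heart at 118 FPKM, then ovary at 86.4 and adipose tissue at 74.4, and reached only 2.40 in liver. Its row shares 485 bp with USP19, which was between 12.1 and 31.3 FPKM and lowest, like LAMB2, in liver.

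LAMB3 was the leading beta chain in liver, where LAMA3, the alpha chain it joins in epithelia, was below 1 FPKM. In lung LAMB3 and LAMA3 stood at 22.2 and 20.5 FPKM, and in ovary at 8.64 and 10.6. Liver had 16.6 FPKM of LAMB3 with 0.294 of LAMA3, which is under the detection level. LAMB3 made up 61.6% of the beta chains there. Lung was 1.31-fold above liver in FPKM + 1, and liver came first when libraries were rescaled by median of ratios or by quantiles. Heart had the lowest LAMB3, at 0.0495 FPKM. Kidney, an epithelial organ by its markers (137 summed FPKM of 7 epithelial genes, against 185 in lung), had only 1.31 FPKM of LAMB3 and 0.177 of LAMA3.

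LAMC1, the gamma chain of most laminins, was above LAMC3, a gamma chain known from only a few laminins, in 8 tissues. The level of LAMC1 was 80.5 FPKM in heart, 2.31 in liver, 11.9 in spleen, 41.7 in lung, 22.6 in kidney, 36.8 in psoas major, 39.8 in longissimus dorsi, 126 in adipose tissue and 26.4 in ovary, highest in adipose tissue and heart and lowest in liver. Ovary was the exception. There LAMC3 was at 97.0 FPKM and LAMC1 at 26.4.

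LAMC3 (ENSSSCG00000005710, plus strand, chromosome 1, 271004501 to 271069970) was at 0.0112 FPKM in heart, 0.00619 in liver, 3.97 in spleen, 1.02 in lung, 9.62 in kidney, 0.0555 in psoas major, 0.0244 in longissimus dorsi, 1.29 in adipose tissue and 97.0 in ovary. Ovary was 9.23-fold above kidney in FPKM + 1. Kidney and spleen were the only other tissues above 2 FPKM, and there LAMC1 was higher, at 22.6 FPKM in kidney and 11.9 in spleen. Both of the members enriched in ovary thus also reached kidney, at 9.62 FPKM for LAMC3 and 1.94 for LAMA1.

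**Figure D2:**
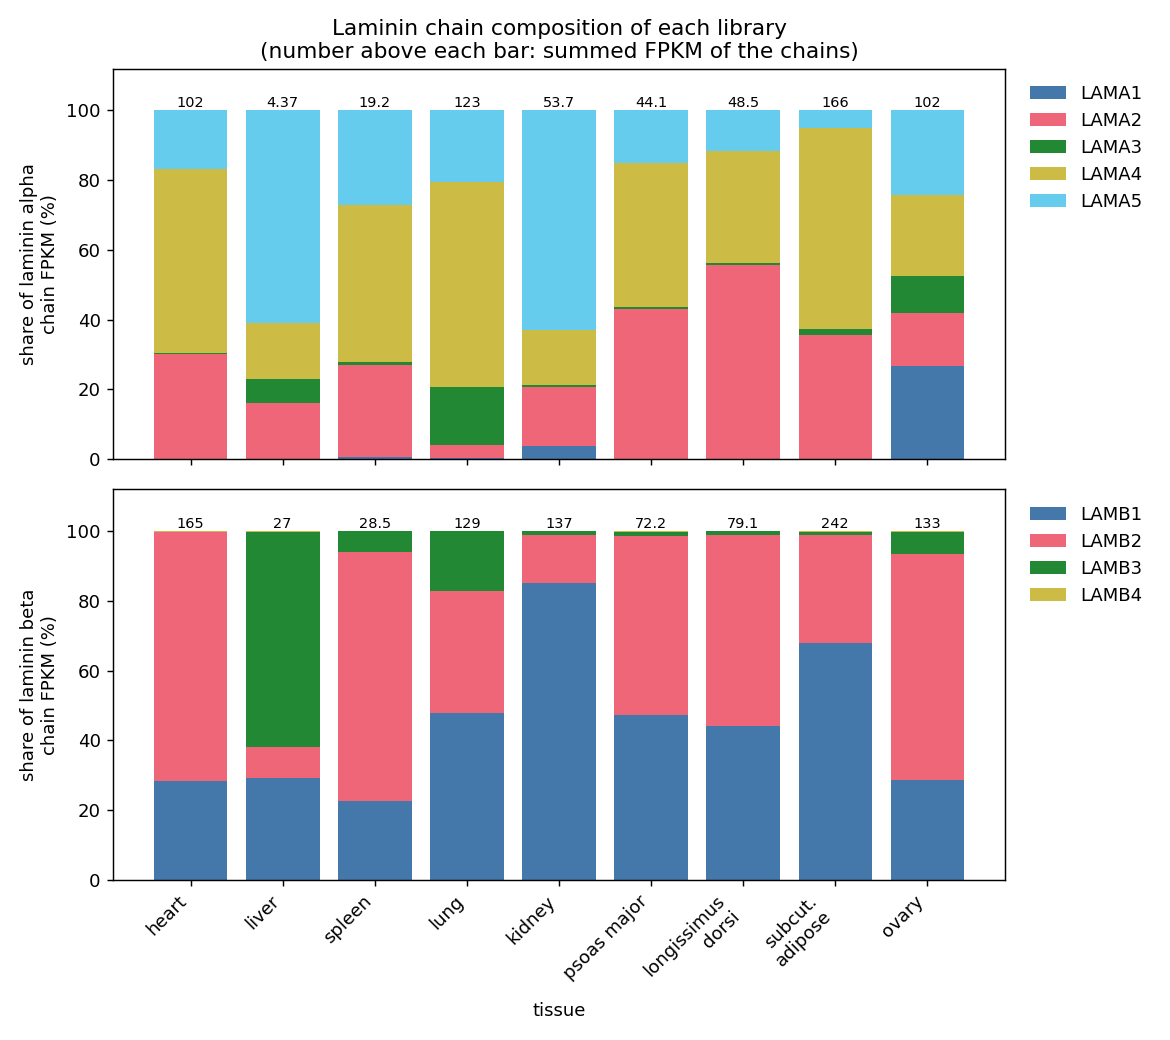
Stacked bars of the share (%) of each chain in the summed FPKM of the laminin alpha (top) and beta (bottom) chains, for each of the 9 tissue libraries, with the summed FPKM above each bar. LAMB3 takes 61.6% of the beta bar in liver on a sum of 27.0 FPKM.

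Summed over the 12 genes, laminin transcripts were most abundant in adipose tissue at 538 FPKM. Ovary (363), heart (352) and lung (308) followed, then kidney (225), longissimus dorsi (168) and psoas major (154), and last spleen (66.4) and liver (33.8). Among other basement membrane genes the picture was mixed. Of 13 with a row, 6 were highest in adipose tissue (6.72% of detected rows), 3 in lung (15%), 3 in ovary (29%) and 1 in liver (5.67%). Enriched were none, against 6.49% of detected rows. NID1, the link between laminin and collagen IV, was at 188 FPKM in adipose tissue and at most 48.6 elsewhere. COL4A2, a collagen IV chain, was at 409.5 there and at most 109 elsewhere. SPARC, a collagen-binding matrix protein, was at 3516 FPKM in adipose tissue and 1096 in ovary, and made up most of the 4442 FPKM that the list summed to in adipose tissue. The median gene of the list was not highest there, at 15.0 FPKM against 40.9 in ovary, 32.0 in kidney and 30.4 in lung. The summed FPKM of 6 fibroblast markers was also highest in adipose tissue (8530.2) and ovary (4862), and between 107 and 1414 elsewhere. Its part in these levels was not tested.

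The laminin-binding integrins ITGA3, ITGA6 and ITGA7 divided the tissues among them. ITGA7, the main laminin receptor of muscle fibres (ENSSSCG00000036237, minus strand, chromosome 5, 21127015 to 21147909), was at 63.5 FPKM in heart, 0.335 in liver, 4.42 in spleen, 2.29 in lung, 3.38 in kidney, 50.8 in psoas major, 44.0 in longissimus dorsi, 138 in adipose tissue and 4.27 in ovary. The striated muscles formed 1 band from 44.0 to 63.5, adipose tissue stood 2.16-fold above heart in FPKM + 1, and every other tissue was under 5. It took 60.5% of integrin alpha transcripts in adipose tissue, 60.5% in longissimus dorsi, 52.0% in psoas major and 33.4% in heart. The row shares 1315 bp with TMT1B. That neighbour was highest in liver (106 FPKM), where ITGA7 was lowest, and was at 29.2 in adipose tissue.

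Adipose tissue thus held the highest ITGA7 and LAMA2 of any tissue, a receptor and ligand pair known from muscle. Muscle markers were low there: the summed FPKM of 6 skeletal muscle genes was 44.3 in adipose tissue against 30676 in psoas major and 52735 in longissimus dorsi. All 6 were at 1 FPKM or more in adipose tissue, with ACTA1, skeletal actin, at 16.4 and MYL11, a fast-fibre myosin light chain, at 13.3 FPKM. ITGB1BP2 (melusin), a muscle protein that binds the tail of ITGB1, was at 51.5 FPKM in heart, 33.7 in psoas major and 33.5 in longissimus dorsi, and at 0.0490 in adipose tissue. The 7 smooth muscle markers summed to 218 in adipose tissue, 526 in lung and 1216 in spleen. Their sums were 1706 in psoas major, 1304 in longissimus dorsi, 1099 in heart, 587 in ovary, 144 in kidney and 50.8 in liver. The list includes DES, a gene shared with striated muscle, so the sums in heart and the skeletal muscles do not measure smooth muscle alone. Markers of Schwann cells, which also carry LAMA2, summed over 5 genes to 58.5 in adipose tissue, 40.2 in psoas major and 36.9 in longissimus dorsi. The part of skeletal muscle, smooth muscle or Schwann cells in the adipose levels was not tested.

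**Figure D3:**
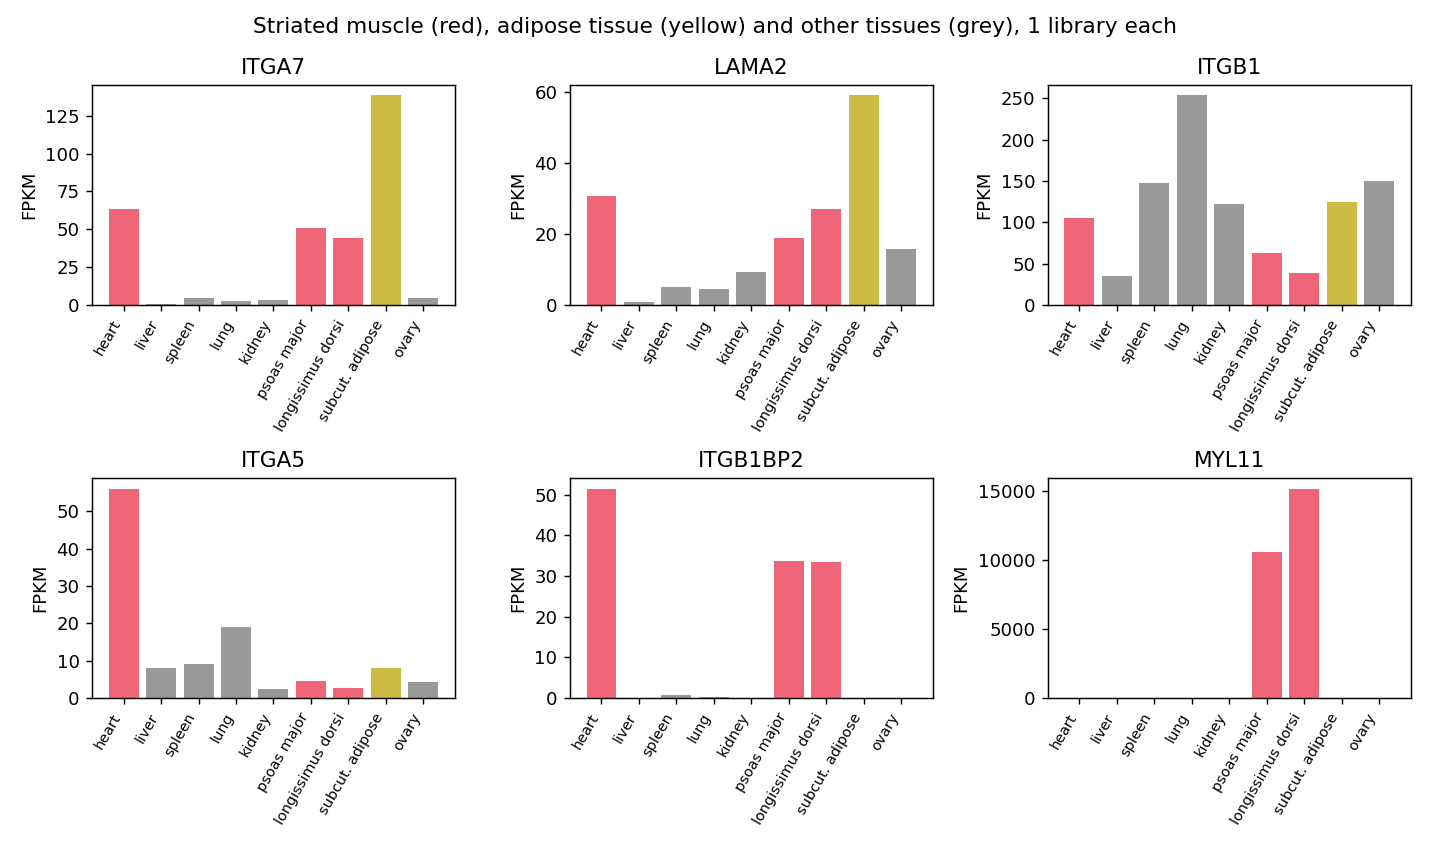
Bars of FPKM (axes from 0, with a different range in each panel) for ITGA7, LAMA2, ITGB1, ITGA5, ITGB1BP2 and MYL11 in the 9 tissue libraries, with striated muscle in red, adipose tissue in yellow and other tissues in grey. ITGA7 and LAMA2 are highest in adipose tissue (138 and 59.0), whereas ITGB1BP2 (0.0490) and MYL11 (13.3) are near the baseline there, and ITGA5 stands out in heart.

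Dystroglycan, another laminin receptor of the muscle membrane, was set beside ITGA7 together with its complex and BCAM. This dystroglycan and sarcoglycan list had 10 genes with a row. 5 were highest in skeletal muscle (4.38% of detected rows) and 2 in ovary (29%). Heart (7.04%), spleen (19.2%) and adipose tissue (6.72%) were highest for 1 each. DAG1, which encodes dystroglycan, was highest in ovary at 78.8 FPKM and no more than 17.2 elsewhere. BCAM, a receptor for LAMA5, was the 1 enriched gene of the list (0.345% of detected rows were enriched in adipose tissue), 5.54-fold at 784 FPKM, in a library where LAMA5 itself was at 8.23.

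ITGA6, a laminin receptor of epithelia, vessels and platelets, was at 60.3 FPKM in kidney and 59.4 in ovary, which cannot be ordered. Spleen (21.7), adipose tissue (20.4), heart (17.2) and psoas major (13.0) followed, and liver was lowest at 5.39. It led the alpha subunits in kidney (36.3%) and ovary (35.5%). ITGB4, its partner in the hemidesmosome that pins epithelia to their basement membrane, was highest in ovary at 32.9 FPKM and between 1.30 and 9.74 elsewhere. ITGA6 exceeded ITGB4 in all 9 tissues, by the least in lung, where they stood at 9.80 and 9.74. COL17A1, a collagen particular to hemidesmosomes, stayed at or under 2.22 FPKM (ovary) in every tissue.

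ITGA3, the laminin receptor of epithelia, was at 26.0 FPKM in lung, 11.4 in kidney, 8.64 in ovary and 1.90 in spleen. It was under 1 FPKM in liver, adipose tissue, heart and both skeletal muscles. The last 4 of these were the tissues with the highest ITGA7. The 3 tissues with the highest ITGA3 were also the 3 that had all 7 epithelial markers at 1 FPKM or more. Liver had 171 summed FPKM of those markers but 0.0388 of ITGA3.

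Of the 4 collagen-binding alpha subunits, ITGA1 was the most abundant in all tissues but ovary, where ITGA11 and ITGA2 were higher. ITGA1 binds collagen IV by preference, and was at 36.9 FPKM in lung, 33.4 in spleen and 27.1 in kidney, detected in all 9 tissues and lowest in ovary at 4.04. ITGA2, which prefers fibrillar collagen, was at 8.62 FPKM in kidney, 8.22 in ovary and 6.23 in lung, and under 1 in heart, liver and both muscles. ITGA11, the fibrillar collagen receptor of fibroblasts, was highest in ovary (9.93 FPKM) and adipose tissue (4.08), and at most 2.59 elsewhere (heart). Ovary and adipose tissue also had the highest fibroblast marker sums. The ITGA11 row shares 4952 bp with FEM1B, which was also highest in ovary, at 9.86 FPKM, and at 5.76 in adipose tissue. The ITGA2 row shares 8727 bp with MOCS2, which was highest in kidney too, at 13.2 FPKM. The part of FEM1B and MOCS2 in these levels was not tested. ITGA10, a receptor known from cartilage, stayed between 0.681 and 2.50 FPKM; its row overlaps other genes, ANKRD35 and GNRHR2 among them, so these low values are uncertain.

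ITGA5, ITGA8 and ITGAV bind the RGD motif of fibronectin and related ligands. ITGA5, the classical fibronectin receptor (ENSSSCG00000000293, minus strand, chromosome 5, 19583451 to 19611209), was at 56.1 FPKM in heart, 8.02 in liver, 9.05 in spleen, 19.0 in lung, 2.55 in kidney, 4.65 in psoas major, 2.74 in longissimus dorsi, 7.95 in adipose tissue and 4.28 in ovary. Heart was 2.85-fold above lung in FPKM + 1, and ITGA5 was there the second alpha subunit with 29.5%, close behind ITGA7. FN1, its ligand, was highest in liver at 546 FPKM and at 25.1 in heart. ITGA8, a receptor of smooth muscle and mesenchyme, was at 28.1 FPKM in lung, 12.8 in spleen and 5.21 in kidney, and under 0.5 in heart, liver and adipose tissue. NPNT, the basement membrane ligand of ITGA8, had its highest value in lung too (85.8 FPKM), followed by ovary (49.7), kidney (25.1) and spleen (18.4). Those 4 tissues were also the 4 with the highest ITGA8.

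ITGAV, which activates latent TGF-beta and binds vitronectin, was present everywhere. Its level ran from 3.49 in longissimus dorsi to 32.6 in kidney, with 20.7 in lung. VTN, the vitronectin gene, was enriched in liver (1.51% of detected rows were) at 3051 FPKM, 215-fold above the next class, where ITGAV was at 4.29. Of ITGB3, ITGB5, ITGB6 and ITGB8, which all pair with ITGAV, ITGB5 was the most abundant in all 9 tissues, from 5.69 in longissimus dorsi to 42.0 in ovary. ITGB3, which also serves platelets, was highest in spleen at 12.03 FPKM, with 4.91 in adipose tissue and 4.60 in ovary. The 6 platelet markers with a row summed to 56.9 FPKM in spleen, 13.5 in lung, 4.69 in ovary and 0.845 in adipose tissue. Their part in the ITGB3 level of spleen was not tested. ITGA2B, the platelet partner of ITGB3, has no row of its own: the row of GPATCH8 spans it.

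ITGB6, known as an epithelial partner of ITGAV, had an uneven spread. It was at 11.1 FPKM in lung, 10.8 in heart, 5.44 in psoas major, 2.56 in kidney and 2.37 in longissimus dorsi, and at or under 0.0754 in the other 4 tissues, with adipose tissue listed at 0. The ITGB6 row shares 9347 bp and 3970 bp with gene models that have no name, and their part in these levels was not tested. Epithelial markers were low in heart and muscle. The 7 summed to 0.311 FPKM in heart, 1.06 in psoas major and 2.09 in longissimus dorsi. EPCAM was at 0, 0.0214 and 0.0189 in the same order. Ovary had 175 of those markers and 0.0754 of ITGB6. Lung and heart differed by only 1.02-fold, and heart came first when libraries were rescaled by median of ratios or by quantiles. ITGB8, the other activator of latent TGF-beta, was low throughout, from 0.0674 FPKM in spleen to 3.89 in kidney, and below ITGAV in all 9 tissues.

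The leukocyte integrins were concentrated in spleen and lung. ITGB2, the beta subunit of leukocytes, was at 139 FPKM in spleen, 93.9 in lung and between 1.09 and 6.88 elsewhere. ITGAL, which with ITGB2 binds ICAM1, was at 49.1 FPKM in lung and 43.2 in spleen, and at most 5.49 elsewhere. ICAM1 itself was highest in the same tissues, 74.5 FPKM in lung and 44.9 in spleen. The 8 general leukocyte markers summed to 1214 FPKM in spleen, 567 in lung and between 16.2 and 92.7 in the other 7 tissues. Their part in the integrin levels was not tested.

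Set against PTPRC, the gene of the common leukocyte antigen CD45, ITGB2 kept a narrow band, from 0.661 times PTPRC in kidney to 1.52 times in lung. ITGAL ranged more widely, from 0.294 in spleen to 1.69 in ovary. ITGAM, the alpha subunit of neutrophils and macrophages, was at 11.5 FPKM in heart, 0.992 in liver, 149.8 in spleen, 32.9 in lung, 2.42 in kidney, 7.57 in psoas major, 2.56 in longissimus dorsi, 13.6 in adipose tissue and 17.5 in ovary. Spleen was highest, but heart, both skeletal muscles, adipose tissue and ovary held over 2 times as much ITGAM as ITGB2, its only known partner. Its ratio to PTPRC was 7.19 in ovary, 3.99 in psoas major and 3.18 in heart, against 1.02 in spleen, 0.532 in lung and 0.172 in liver. The row (ENSSSCG00000007754, minus strand, chromosome 3, 17134864 to 17265533) also spans ITGAD and ITGAX, the other leukocyte alpha subunits, which have no row of their own, and shares 241 bp with COX6A2, a respiratory chain gene of striated muscle. COX6A2 was at 139.9 FPKM in heart, 92.1 in psoas major and 92.2 in longissimus dorsi, and at 7.52 in adipose tissue and 2.87 in ovary. The ITGAM values are therefore those of a merged gene model, and what share of them is ITGAM was not tested.

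**Figure D4:**
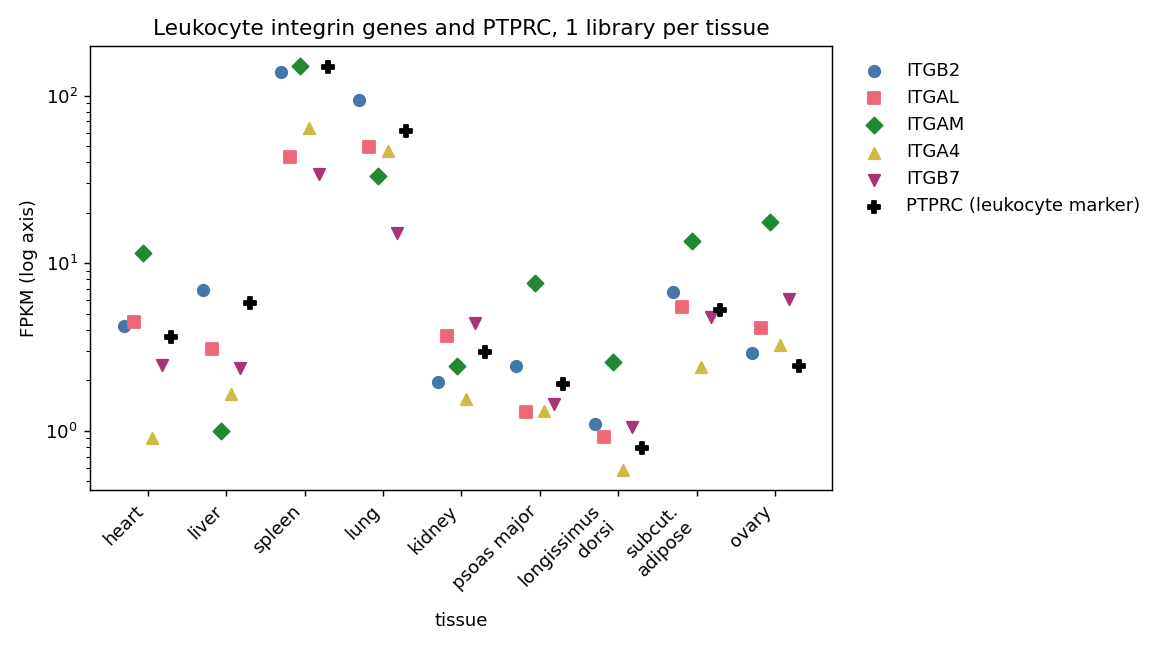
Points of FPKM on a log axis for ITGB2, ITGAL, ITGAM, ITGA4 and ITGB7, with the leukocyte gene PTPRC in black, in the 9 tissue libraries. The points cluster high in spleen and lung; ITGAM sits above PTPRC in heart, both muscles, adipose tissue and ovary, and below it in liver, lung and kidney.

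ITGA4 and ITGA9 are related alpha subunits that bind VCAM1 and matrix ligands. ITGA4, the homing receptor of lymphocytes, was at 63.8 FPKM in spleen and 46.4 in lung, and at most 3.24 elsewhere (ovary). ITGB7, its partner in gut homing, was at 34.1 FPKM in spleen, 15.1 in lung and at most 6.10 elsewhere, also in ovary. Their ligands stood out in spleen: VCAM1 was at 486 FPKM (11.6-fold enriched) and MADCAM1 at 75.4 (26.1-fold enriched), 2 of the 8 cell surface ligands with a row, against 0.428% of detected rows enriched in spleen. ITGA9 was spread differently. It was at 49.4 FPKM in spleen, 32.7 in liver, 26.3 in lung and 16.9 in ovary, and under 5 in the rest. In liver ITGA9 was the leading alpha subunit with 46.5%, while ITGA4 had 1.64 FPKM there. ITGAE, the receptor of T cells in epithelia, stayed between 0.394 and 5.24 FPKM; its row overlaps NCBP3 over 16980 bp and contains HASPIN, which was at 11.8 FPKM in ovary, the highest tissue of ITGAE too.

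ITGB1 led the beta subunits in all 9 tissues. Its level was 105 FPKM in heart, 35.3 in liver, 147 in spleen, 253 in lung, 122 in kidney, 62.9 in psoas major, 39.2 in longissimus dorsi, 125 in adipose tissue and 150.5 in ovary. Lung was highest, liver and longissimus dorsi were lowest, and tau was only 0.18, the lowest of the 34 detected members. The share of ITGB1 among beta subunits ran from 41.2% in spleen, where ITGB2 had 38.8%, to 76.0% in psoas major. ITGB1 also exceeded each of the alpha subunits it pairs with in nearly every tissue. The exceptions were both ITGA7: in adipose tissue it stood at 138 FPKM against 125 of ITGB1, and in longissimus dorsi at 44.0 against 39.2. Summed over all 23 genes, integrin transcripts were most abundant in spleen (768 FPKM) and lung (718), then between 332 and 409.8 in kidney, heart, adipose tissue and ovary. Psoas major had 180.4, liver 131 and longissimus dorsi 126. The merged ITGAM row gave 149.8 FPKM of the spleen sum and 32.9 of the lung sum, and without that row lung came first. Spleen was thus first for integrins only with the merged row included, and next to last for laminins.

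**Figure D5:**
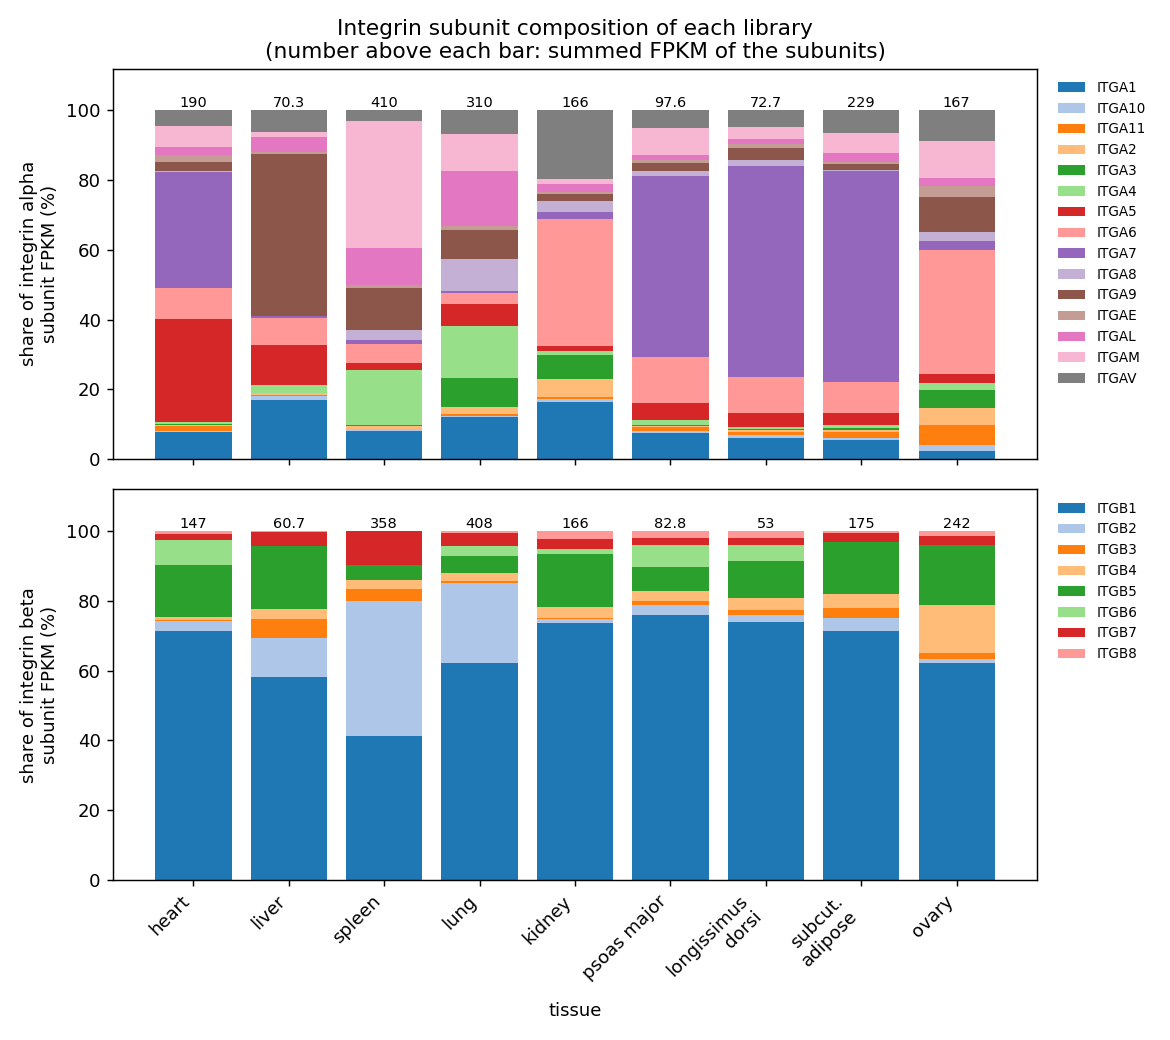
Stacked bars of the share (%) of each subunit in the summed FPKM of the integrin alpha (top) and beta (bottom) subunits in each of the 9 tissue libraries, with the summed FPKM above each bar. ITGB1 is the largest part of every beta bar, ITGA7 fills 60.5% of the alpha bar in adipose tissue, and in lung no alpha subunit exceeds 15.9% (ITGAL).

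The 21 integrin activators and adaptors with a row were spread more evenly than the members. Their median tau was 0.24, against 0.54 over the members and 0.41 over all detected rows. Of the 21, 15 were detected in all 9 tissues, against 49% of detected rows. None was enriched, against 6.49% of detected rows. FERMT3, the kindlin of blood cells that switches on ITGB2 integrins, was at 117 FPKM in spleen and 44.1 in lung, and at most 7.36 elsewhere. TLN1, the talin that links integrin tails to actin, was highest in spleen at 173 FPKM and lowest in longissimus dorsi at 11.7, whereas TLN2, the talin of striated muscle, was at 20.1 FPKM in longissimus dorsi and 1.07 in spleen.

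Heart was compared with each skeletal muscle over genes at 1 FPKM or more in heart or in both muscles, with a difference of 2 in log2(FPKM + 1) required against each. Of 25 members that passed the filter, 1 was higher in heart, against 3.01% of 11145 rows, and none was higher in muscle, against 1.91%. The heart gene was ITGA5, by 3.34 over psoas major and 3.93 over longissimus dorsi. The summed fibroblast markers were 1143 FPKM in heart, 886 in psoas major and 1414 in longissimus dorsi, with heart between the muscles. Endothelial markers summed to 173, 90.2 and 84.0, and their part was not tested.

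22 of the 25 members lay above 0 on the mean of the muscles, against 76.6% of all rows, and the median difference was 1.05, against 0.41 for all 11145 rows. The offset of all rows came to 0.02 when libraries were rescaled by median of ratios. After ITGA5 the differences included those of ITGB5 (1.76), LAMA4 (1.62) and LAMB2 (1.54). Of the 5 chains that led their groups in both skeletal muscles, ITGA7 (0.42) and LAMA2 (0.43) were close to the offset of all rows, and ITGB1 (1.06), LAMC1 (1.05) and LAMB2 were above it. LAMB1 was at 0.44. The 3 below 0 were ITGA8 (-0.62), ITGB4 (-0.39) and ITGB8 (-0.21). Partner genes past the threshold in heart (3.01% of all rows) included COL4A5 (a collagen IV chain) and COL18A1, 2 of 10 basement membrane genes tested. KANK2, a talin-binding adaptor, was 1 of 19 activators and adaptors, and VTN 1 of 12 matrix ligands. SNTB1, a syntrophin of the dystrophin complex, was 1 of 10 tested in its list and passed in muscle (1.91% of all rows). It was at 17.9 FPKM in psoas major, 21.5 in longissimus dorsi and 2.02 in heart. Of 5 cell surface ligands and 3 hemidesmosome genes tested, none passed.

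Psoas major and longissimus dorsi differed little. Of 24 members at 1 FPKM or more in either, 1 was higher in psoas major by at least 1 in log2(FPKM + 1), against 4.66% of 10513 rows, and none was higher in longissimus dorsi, against 2.09%. That gene was the merged ITGAM row, by 1.27. COX6A2, which overlaps it, was level between the muscles at 92.1 and 92.2 FPKM. The next largest were ITGB6 (0.93), ITGB2 (0.71), ITGA6 (0.70) and ITGB1 (0.67), and LAMA2 leaned the other way (-0.49). The median difference towards psoas major was 0.25 over the members and 0.27 over all rows. That offset of all rows came to -0.03 when libraries were rescaled by median of ratios. The median size of the difference without its sign was 0.26 over the 24 members and 0.35 over all rows. Leukocyte markers summed to 25.6 FPKM in psoas major and 16.2 in longissimus dorsi, and their part in the ITGAM and ITGB2 differences was not tested.

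Of 14 matrix ligands of integrins tested, 2 were higher in psoas major and 2 in longissimus dorsi. Of all 10513 rows, 4.66% and 2.09% were called so. The ligands higher in longissimus dorsi were VTN and FGB, plasma proteins made by liver, both at low levels. VTN was at 2.25 FPKM in longissimus dorsi and 0.370 in psoas major, and FGB at 1.55 and 0.146. Hepatocyte markers summed over 6 genes to 54.7 FPKM in longissimus dorsi and 6.79 in psoas major, and their part was not tested. SPP1, osteopontin, which binds ITGAV and ITGA9 integrins, was at 22.3 FPKM in psoas major and 0.372 in longissimus dorsi, a difference of 4.09. TNC, tenascin C, known from tendon and the myotendinous junction, was at 8.79 and 0.382, a difference of 2.83. ITGAV (0.42) and ITGA9 (-0.10) differed little between the same libraries.

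In the library labelled as a mixture all 35 members lay between their lowest and highest single-tissue values. LAMC3, at 97.0 FPKM in ovary, was at 1.28 in the library labelled as the mixture, and LAMA1 at 0.288. The 6 ovary markers were likewise far lower there, at 0.797 summed FPKM against 373 in ovary, so the library showed little sign of ovary RNA. LAMB3, high in lung and liver, was at 13.0.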

How the data were processed

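RNA was measured once in each of 9 tissues and in 1 library labelled as a mixture of tissues. Total RNA was extracted with TRIzol and made into TruSeq libraries, per the labels' protocols. TopHat2 2.1.0 and StringTie 1.2.2 are named, with the assembly Sscrofa11.1, in the submitters' processing notes. The sources used here do not give the annotation release, strandedness or filters. The deposited file holds 1 value per gene and library, read as FPKM: its header names no unit, and this was inferred from the values and from StringTie, so a related unit per length is possible. No counts were used and, with 1 library per tissue, no test was run.

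Rows were named through Ensembl identifiers (14857 rows) and otherwise from RefSeq genes of the same assembly with a reciprocal overlap of at least 0.5 (1714 rows). This named 34 members and LAMA2, respectively. 1 member and some other genes are counted in totals but not reported here by name. ITGBL1, a beta-like gene that is no subunit, was left out. The rule for named genes gave values in all tissues for enriched members and the highest of each subfamily; partners were named from lists for their levels in the tissues described. LAMA2 and ITGA5 were given in full after their values were seen, as were some partners and neighbours. Members and lists were chosen with earlier results of these data known. Levels were compared as log2(FPKM + 1); alternatives varied the pseudocount (0.1 and 5), thresholds, filters, naming and scaling (mean sum, median of ratios, quantiles). The procedure was tested on simulated data. Calculations used matplotlib 3.10.9, pandas 2.3.3 and numpy 2.4.6 in Python 3.11.15.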

Additional observations from a re-analysis of the deposited data

How the results depend on the processing

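No paired analysis was possible because each tissue has 1 library and the columns carry no replicate numbers. Across the alternatives, 148 recomputed summary values stayed within the limits set for them and 15 moved. They are counts, and could stay the same when the leading class or chain changed, as with the second LAMA2 row. The 2 enriched members became 1 (LAMC3) with a pseudocount of 5, 4 at a threshold of 3-fold (ITGAM and ITGB4 added) and 0 at 10-fold. Quantile normalisation made them 3, with ITGAM at 5.27-fold in spleen. The fold of LAMA1 ran from 4.61 to 13.3 and that of LAMC3 from 6.83 to 11.6 over the pseudocounts and scalings. Members highest in heart numbered 4 and those highest in liver 2 under median-of-ratios scaling and under quantile normalisation, against 2 and 0. Those higher in heart than in both muscles numbered 2 with a pseudocount of 0.1 and 8 at a threshold of 1, against 1. Those higher in psoas major numbered 4 with a pseudocount of 0.1, 0 with a pseudocount of 5, 8 at a threshold of 0.5, 2 after scaling to the mean sum and 0 after quantile normalisation, against 1. Members with tau of at least 0.8 numbered 1 with a pseudocount of 0.1, against 2. The cause of these shifts was not tested, beyond the thresholds themselves. Median-of-ratios scaling shifted whole libraries on the log2 scale, from -0.58 in ovary to 0.67 in longissimus dorsi: levels in ovary, lung and spleen went down under it, and those in liver and muscle went up. The alternative row for LAMA2, and ITGBL1 counted as a member, were chosen after seeing the data. ITGBL1 reached 32.6 FPKM in adipose tissue, 8.17-fold above the next class in FPKM + 1. The values carry no replicate error, 11 of the 35 rows overlap another named gene, and depth is known only to a factor of 2. Other rows overlap gene models that have no name, among them LAMA1 (10256 bp), LAMC3 (13366 bp), ITGB1 (36064 bp) and ITGB5 (56610 bp). The part of those models in the levels was not tested.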
